A study of Mus musculus with 17 samples.

Results

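Glycolysis and the response to low oxygen were followed through 36 genes in neutrophils and macrophages sorted from injured mouse muscle. The genes form a named list, and each was taken at the row of the deposited expression table that carries its symbol, the row with the highest mean where several did. A gene was used where its level reached 5 on the log2 scale in at least 1 of the 6 groups. All 36 listed genes met this limit, out of 38087 genes in the table. Adm lay just inside it, with a highest log2 level of 5.03, and no listed gene lay outside.

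Glycolysis splits glucose into pyruvate in the cytosol, and lactate dehydrogenase turns pyruvate into lactate, which leaves the cell through monocarboxylate transporters. The transcription factor HIF-1α, encoded by Hif1a, is made and destroyed continuously while oxygen is present, because the prolyl hydroxylases encoded by Egln1 and Egln3 mark it for degradation. When oxygen falls or inflammatory signals raise its synthesis, it pairs with ARNT and raises transcription of glucose transporters, most glycolytic enzymes, Vegfa and genes that limit mitochondrial load. Neutrophils and freshly recruited inflammatory monocytes are known for a metabolism that leans on glycolysis, and tissue-repair macrophages for one that leans more on mitochondria.

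Male DBA/2J mice, aged 3 months, had the tibialis anterior muscle injured with cardiotoxin, a component of snake venom that destroys muscle fibres and sets off their regeneration, and cells were sorted from it. There were 17 samples in 6 groups, with 3 samples in every macrophage group and 2 of neutrophils. Neutrophils were taken on day 1, macrophages with high Ly6C on days 1, 2 and 4, and macrophages with low Ly6C on days 2 and 4. Ly6C is a surface protein that is high on newly arrived inflammatory monocytes and low on the macrophages of repair. The labels give no genotype or agent beyond strain and cardiotoxin, so by the labels the groups differ in cell type and day. The labels do not say whether a sample pools animals. The title of the series names PPARγ and macrophage polarization, and none of these 17 samples is labelled as altered in PPARγ.

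The table holds 1 value per gene and group, the authors' group mean of log2 normalised reads, and not the value of each sample. It therefore gives no spread between replicates, no difference here has a replicate check, and no p-value is given. A gene was compared between 2 groups where it reached log2 5 in at least 1 of them, and was counted where the group means lay at least 1 log2 unit, or 2-fold, apart. The worth of 1 read, read from the steps between low values, was 0.412 to 1.03 normalised reads. A log2 level of 5 then stands for 31.2 to 77.6 reads in a sample, with a counting error of 11.4 to 17.9%. The values are not divided by gene length.

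Both kinds of marker were high in the neutrophil group. Its 12 neutrophil markers summed to a log2 level of 16.44, against 11.08 to 12.22 in the 5 macrophage groups. Ly6g, the defining surface marker of mouse neutrophils, was at 3.48 on the log2 scale there and at 0 in every macrophage group. That level lies below the limit of 5, as do those of Camp (3.16) and Ngp (4.05) in neutrophils. Mmp8 was at 9.30 in neutrophils and 9.21 in Ly6C high cells on day 1. The 7 macrophage markers found in the table summed to 17.23 in neutrophils and to 17.42 to 18.18 in the macrophage groups, and Csf1r, the macrophage growth factor receptor, was at 13.27 in neutrophils. What macrophage RNA contributes to the neutrophil values of the members was not tested. Markers of stromal cells stood far higher on day 4: 9 fibroblast markers (leaving out Fn1, which macrophages also make) summed to log2 levels of 5.88 in neutrophils, 8.72, 10.40 and 15.85 in the Ly6C high groups (days 1, 2 and 4), and 7.89 and 13.86 in the Ly6C low groups (days 2 and 4).

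HIF-1 binds DNA at a short core, written ACGTG or GCGTG. Promoter windows of 300 bases, from 250 before to 50 after each start, were taken from RefSeq (GRCm38.p6) for 34 of the 36 members, and Bnip3l and Ndrg1 were not matched. Below are stretches before the start of members that carry the pattern described afterwards. Ldha, Pgk1, Hif1a, Slc16a3 and Slc2a1 had lower levels on day 4, Ldhb a higher one, and Ankrd37 its highest level in neutrophils. Sequences read 5′ to 3′ on the strand of the gene, and capitals mark ACGTG on either strand, so that CACGTG is a pair of overlapping matches.
Ldha, chr7:46845644-46845803, plus strand: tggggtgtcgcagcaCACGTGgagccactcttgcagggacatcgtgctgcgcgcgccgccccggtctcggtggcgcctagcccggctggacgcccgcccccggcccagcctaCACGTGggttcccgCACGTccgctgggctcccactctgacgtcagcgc
Pgk1, chrX:106186940-106187099, plus strand: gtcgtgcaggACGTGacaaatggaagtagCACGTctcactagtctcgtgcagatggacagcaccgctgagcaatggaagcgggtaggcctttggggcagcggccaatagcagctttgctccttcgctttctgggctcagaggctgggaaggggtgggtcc
Hif1a, chr12:73907707-73907866, plus strand: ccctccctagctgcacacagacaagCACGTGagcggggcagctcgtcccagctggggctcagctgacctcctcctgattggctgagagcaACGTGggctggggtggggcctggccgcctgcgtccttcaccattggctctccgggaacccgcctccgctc
Ldhb, chr6:142507958-142508117, minus strand: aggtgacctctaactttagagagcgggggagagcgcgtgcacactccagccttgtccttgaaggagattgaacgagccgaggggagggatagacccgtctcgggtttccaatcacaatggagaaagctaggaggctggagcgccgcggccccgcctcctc
Slc16a3, chr11:120949037-120949066, plus strand: gtgACGTGcgcgggggACGTGccgcgcgac
Slc2a1, chr4:119108705-119108734, plus strand: ccggACGTGctccccaggccccgccccctt
Ankrd37, chr8:45999851-45999880, minus strand: ggctgcacatgtcagtgtttgggtACGTGa

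Counted on both strands, ACGTG stood at 5 places in the Ldha stretch, 3 in that of Hif1a, 2 in those of Pgk1 and Slc16a3, and at none in that of Ldhb. Ldha has another RefSeq start, not shown, and the 160 bases before it held none. GCGTG, the other form of the core, is not marked in the stretches, and that of Ldhb holds it at 1 place. Over the windows of 300 bases, ACGTG was present in 29 of 49 member windows (59.2%) and in 19.6% of the 32851 windows of all genes. By gene, 25 of 34 matched members had it in at least 1 window, among them 8 of the 9 members that were at least 2-fold lower in Ly6C high cells on day 4 than on day 1 and 2 of the 4 that were higher. The lower member without it was Eno1, and the higher members with it were Pfkm and P4ha2. The share of all genes with ACGTG in at least 1 window was not counted, so these counts by gene have none beside them. A gene with several windows has more places to match. GCGTG was present in 61.2% of member windows against 32.4% of all, and the palindrome CACGTG, which contains ACGTG on both strands, in 12.2% against 7.15%. Member windows were also richer in G and C, with a median of 63.3% against 52.7%, and the part of base composition in these shares was not tested. The stretches of Ldha, Hif1a, Slc16a3 and Ankrd37 lie within the span that GENCODE M21 gives the gene, upstream of a RefSeq start, and that of Slc2a1 crosses the GENCODE start. A match describes the letters of the window and shows no binding.

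Across the macrophage groups most members were highest early and lowest late. Of the 36 members, 18 had their highest macrophage level in Ly6C high cells on day 1 and 9 in Ly6C high cells on day 2, whereas 18 had their lowest in Ly6C low cells on day 4 and 8 in Ly6C high cells on day 4. The highest macrophage level was in Ly6C low cells on day 4 for 4 members (Ldhb, Pfkm, Bnip3l and Pfkfb4) and in Ly6C high cells on day 4 for 2 (P4ha2 and Adm). These counts take any gap between groups, however small, and the same counts were not made for all genes. Ldha, for instance, was highest in Ly6C high cells on day 2, at a log2 level of 12.46 against 12.43 on day 1. Ankrd37 was counted although it lay below the limit for comparison in every macrophage group. In these sorted bulk samples a smaller share of cells with a transcript and less of it per cell cannot be told apart.

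In Ly6C high cells, the log2 levels of day 4 were compared with those of day 1 for 34 members. Of these, 9 were at least 2-fold lower on day 4, where 3.97% of all 12391 genes compared were, and 4 were at least 2-fold higher, where 17.6% of all genes were. Either way, 21.6% of all genes were apart. The members' median log2 difference was -0.57, and that of all genes 0.01. Against day 2, with 35 members compared, 8 were 2-fold lower on day 4 (2% of all genes) and 4 higher (14.3% of all genes, with 16.3% apart), with a median log2 difference of -0.41 against 0.01. Between days 1 and 2 only Ddit4 was 2-fold apart, with a lower level on day 2, so 1 of 32 members compared was lower (1.1% of all genes) and none was higher (1.41% of all genes, with 2.51% apart). The comparisons of day 4 share the day 4 group, so they are not separate evidence. Quantile normalization lowered the share of higher genes among all genes counted from 81.6 to 62.5% for day 4 against day 1 and from 87.7 to 66.4% against day 2, and the members' split moved from 4 higher and 9 lower to 3 and 10, and from 4 and 8 to 3 and 8.

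**Figure D1:**
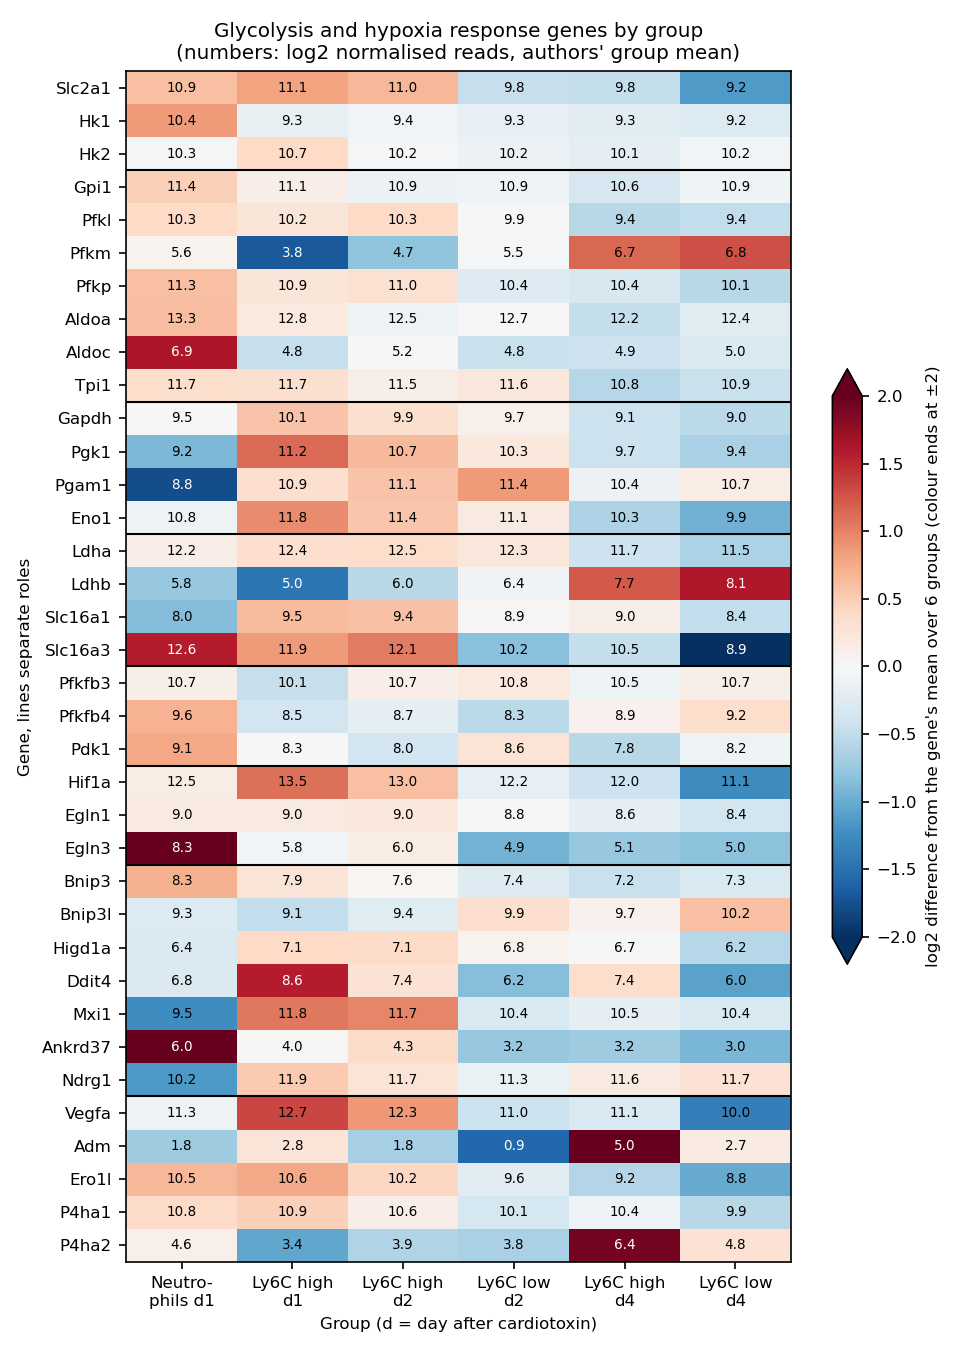
Levels of the 36 members (vertical axis, ordered by role with lines between roles) in the 6 groups (horizontal axis). Numbers are log2 normalised reads, and colour is the log2 difference from the gene's own mean over the groups: Hif1a goes from 13.48 in Ly6C high cells on day 1 to 11.13 in Ly6C low cells on day 4, while Ldhb goes from 5.05 to 8.12.

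At glucose entry the importer was at least 2-fold lower on day 4 in Ly6C high cells. Hk1 and Hk2 were less than 2-fold apart between macrophage groups. Slc2a1, the basal glucose importer of most cells, had log2 levels of 10.88 in neutrophils, 11.10, 10.95 and 9.81 in the Ly6C high groups (days 1, 2 and 4), and 9.82 and 9.15 in the Ly6C low groups (days 2 and 4). Its level was thus about equal in the 3 early inflammatory groups and lower in the other 3. The log2 difference was -1.28, or 2.44-fold lower, on day 4 against day 1, and -1.13 in Ly6C low against Ly6C high cells on day 2. Of the hexokinases, which trap glucose as glucose 6-phosphate, Hk2 lay between 10.09 and 10.67 over all 6 groups. Hk1 lay between 9.23 and 9.44 over the macrophage groups. Neither was 2-fold apart between any macrophage groups compared. Hk3, a hexokinase outside the members, was at 10.11 in Ly6C high and 11.15 in Ly6C low cells on day 4. It was thus at least 2-fold higher in Ly6C low cells there, where 2.44% of all genes were.

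Upstream of glyceraldehyde phosphate most enzymes had a slightly lower level on day 4, and 1 phosphofructokinase had a higher one. Pfkl, the liver-type subunit, went from 10.33 in Ly6C high cells on day 2 to 9.37 on day 4 on the log2 scale, a log2 difference of -0.95 that stays short of 2-fold. Pfkp, the platelet-type subunit, had log2 levels of 10.94 on day 1 and 10.38 on day 4 in the same cells. Pfkm, the muscle-type subunit, had log2 levels of 5.58 in neutrophils, 3.84, 4.72 and 6.67 in the Ly6C high groups (days 1, 2 and 4), and 5.49 and 6.81 in the Ly6C low groups (days 2 and 4). The level of Pfkm thus stood higher at each later day in both macrophage populations, by 7.09-fold between days 1 and 4. It was compared there only through the day 4 value, so it had to differ in order to be counted.

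Pfkm is also a gene of muscle fibres, whose summed markers were also highest on day 4. The 10 muscle fibre markers summed to log2 levels of 6.18 in neutrophils, 5.58, 4.83 and 7.0 in the Ly6C high groups (days 1, 2 and 4), and 5.05 and 8.13 in the Ly6C low groups (days 2 and 4). Acta1, the actin of skeletal muscle, had log2 levels of 3.30 in Ly6C high cells on day 1 and 2.92 in Ly6C low cells on day 2. Both lie below the limit of 5. On day 4 it was at 5.36 in Ly6C high and 6.88 in Ly6C low cells. Not every fibre marker went this way. In Ly6C high cells Ckm was at 3.29 on day 1 and 1.94 on day 4, Mb at 2.02 and 0.10, and Pvalb at 1.14 and 0. Only Acta1, Mylpf and Tnnt3 reached log2 5 in any group, so the sum rests on few genes. The 6 markers of muscle progenitors summed to log2 levels of 3.30 to 4.68 in the 4 groups of days 1 and 2, with 4 or 5 of the 6 at 0, and to 7.45 and 8.47 in Ly6C high and low cells on day 4. What muscle RNA adds to the day 4 levels of Pfkm was not tested.

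The other upper enzymes include the member with the highest level per kb when near-identical copies, described below, are left out. Aldoa, the main aldolase, had log2 levels of 12.85 in Ly6C high cells on day 1 and 12.18 on day 4, and 12.41 in Ly6C low cells on day 4. Tpi1, which interconverts the triose phosphates, had log2 levels of 11.66, 11.47 and 10.78 in the Ly6C high groups (days 1, 2 and 4), with 11.57 and 10.91 in the Ly6C low groups (days 2 and 4). Gpi1, the isomerase that makes fructose 6-phosphate, spanned only 10.63 to 11.10 in log2 level over the macrophage groups. None of these was 2-fold apart in a macrophage comparison. Divided by exon length in kb, the log2 level averaged over the 6 groups was highest for Aldoa (11.11), followed by Ldha (10.37), Tpi1 (9.89), Hif1a (9.82) and Pgam1 (9.56), and lowest for P4ha2 (1.83) and Adm (1.80). This order leaves out copies. Summed with them and not divided by length, Gapdh was at 14.41 and Eno1 at 14.19 in Ly6C high cells on day 1, above the 12.85 of Aldoa.

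The 4 enzymes from glyceraldehyde phosphate to phosphoenolpyruvate had lower levels on day 4, Pgk1 and Eno1 by at least 2-fold. Pgk1, the first ATP-making enzyme of the pathway, had log2 levels of 9.20 in neutrophils, 11.23, 10.74 and 9.67 in the Ly6C high groups (days 1, 2 and 4), and 10.32 and 9.45 in the Ly6C low groups (days 2 and 4). Eno1, enolase, had log2 levels of 10.78, then 11.83, 11.43 and 10.26, then 11.05 and 9.92 in the same order. The levels of both were lower at each later day in both macrophage populations. Against day 1, the day 4 level in Ly6C high cells was 2.96-fold lower for Pgk1 and also 2.96-fold lower for Eno1. The log2 difference of Gapdh was -0.99, just short of 2-fold, and that of Pgam1 was -0.45. Between days 2 and 4 in Ly6C low cells the log2 difference was -1.13 for Eno1 and -0.87 for Pgk1.

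Several of these enzymes have near-identical copies in the genome that can share their reads. With a limit of 95% identity over at least 300 bases, 9 members had 61 copies among the genes of the table, and Gapdh had 51 of them. Between macrophage groups the copies ran with the member: in Ly6C high cells on day 4 against day 1, 39 Gapdh copies had log2 differences of -1.26 to -0.81 with a median of -1.06, against -0.99 for Gapdh. The pair of Eno1 copies lay at -1.59 and -1.57, against -1.57 for Eno1. Against neutrophils they did not: 40 Gapdh copies had log2 differences of -1.46 to 5.29 in Ly6C high cells on day 1, with a median of 2.32, against 0.58 for Gapdh. How the authors assigned shared reads is not given in the sources used here, so the levels of these members and their differences from neutrophils are uncertain.

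**Figure D2:**
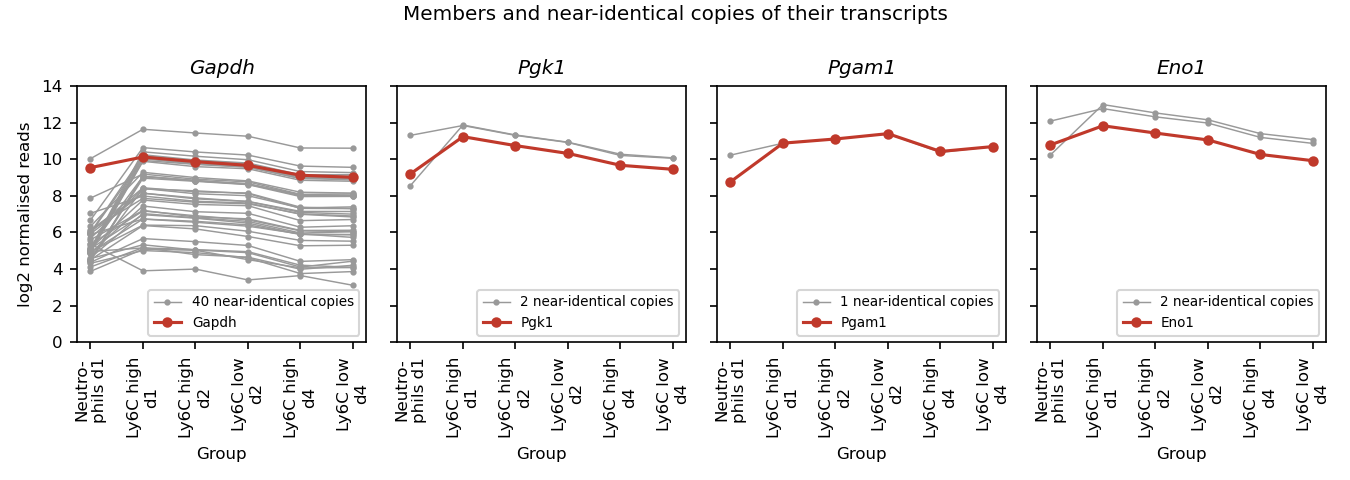
Log2 normalised reads (vertical axis) of Gapdh, Pgk1, Pgam1 and Eno1 (red) and of their near-identical copies that reach log2 5 (grey) in the 6 groups (horizontal axis). From Ly6C high cells on day 1 onward the grey lines run beside the red one, and in neutrophils they spread: Pgk1 is at 9.20 there, with its copies at 8.56 and 11.30.

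The lactate dehydrogenase subunits differed in opposite directions by day. Ldha, the muscle-type lactate dehydrogenase subunit that HIF-1 is known to raise, had log2 levels of 12.23 in neutrophils, 12.43, 12.46 and 11.68 in the Ly6C high groups (days 1, 2 and 4), and 12.33 and 11.46 in the Ly6C low groups (days 2 and 4). Ldhb, the heart-type subunit, had log2 levels of 5.76, then 5.05, 5.97 and 7.74, then 6.44 and 8.12 in the same order. Ldha was the more abundant in every group, and Ldhb stood higher at each later day in both populations. For Ldhb the log2 difference of day 4 against day 1 in Ly6C high cells was 2.69, or 6.44-fold, and of day 4 against day 2 in Ly6C low cells 1.68, or 3.2-fold. Ldhb has 1 near-identical copy, whose log2 differences in these comparisons were 2.77 and 2.11. The summed markers of muscle fibres, muscle progenitors and fibroblasts (without Fn1) were also highest on day 4. What RNA of such cells adds to the level of Ldhb was not tested.

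The lactate exporter Slc16a3 differed between macrophage populations more than any other member on day 2. Its log2 levels were 12.59 in neutrophils, 11.87, 12.06 and 10.55 in the Ly6C high groups (days 1, 2 and 4), and 10.18 and 8.86 in the Ly6C low groups (days 2 and 4). Neutrophils and early Ly6C high cells were highest, and Ly6C low cells on day 4 were lowest by far. The log2 difference of Ly6C low against Ly6C high cells was -1.88 on day 2, or 3.68-fold lower, and -1.69 on day 4, or 3.22-fold lower. Slc16a1, a transporter that carries lactate in either direction, had log2 levels of 7.98 in neutrophils, 9.48, 9.43 and 8.96 in Ly6C high cells, and 8.88 and 8.36 in Ly6C low cells, and was not 2-fold apart in any macrophage comparison.

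No regulator of flux was 2-fold apart between macrophage groups. Pfkfb3 and Pfkfb4 make the fructose 2,6-bisphosphate that activates phosphofructokinase, and Pdk1 blocks the entry of pyruvate into mitochondria. Over the 5 macrophage groups the log2 levels spanned 10.10 to 10.76 for Pfkfb3, 8.32 to 9.20 for Pfkfb4 and 7.78 to 8.61 for Pdk1. In neutrophils the log2 levels were 10.69, 9.55 and 9.10, and Pfkfb4 was 2.12-fold lower in Ly6C high cells on day 1 than there.

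Among the oxygen-sensing genes, the transcript of the factor itself had the widest span in macrophages. Hif1a had log2 levels of 12.53 in neutrophils, 13.48, 12.98 and 11.97 in the Ly6C high groups (days 1, 2 and 4), and 12.22 and 11.13 in the Ly6C low groups (days 2 and 4). Its level was lower at each later day in both populations, and lower in Ly6C low than in Ly6C high cells on both days, by 0.76 and 0.85 log2 units. On day 4 against day 1 in Ly6C high cells it was 2.83-fold lower. Egln1, the main oxygen-dependent hydroxylase, spanned 8.41 to 8.99 in log2 level over the macrophage groups. Egln3, a hydroxylase that is itself a HIF target, had log2 levels of 8.27 in neutrophils, 5.78, 5.98 and 5.08 in the Ly6C high groups (days 1, 2 and 4), and 4.89 and 5.02 in Ly6C low cells. It was the member furthest below neutrophils in Ly6C high cells on day 1, by 5.62-fold.

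**Figure D3:**
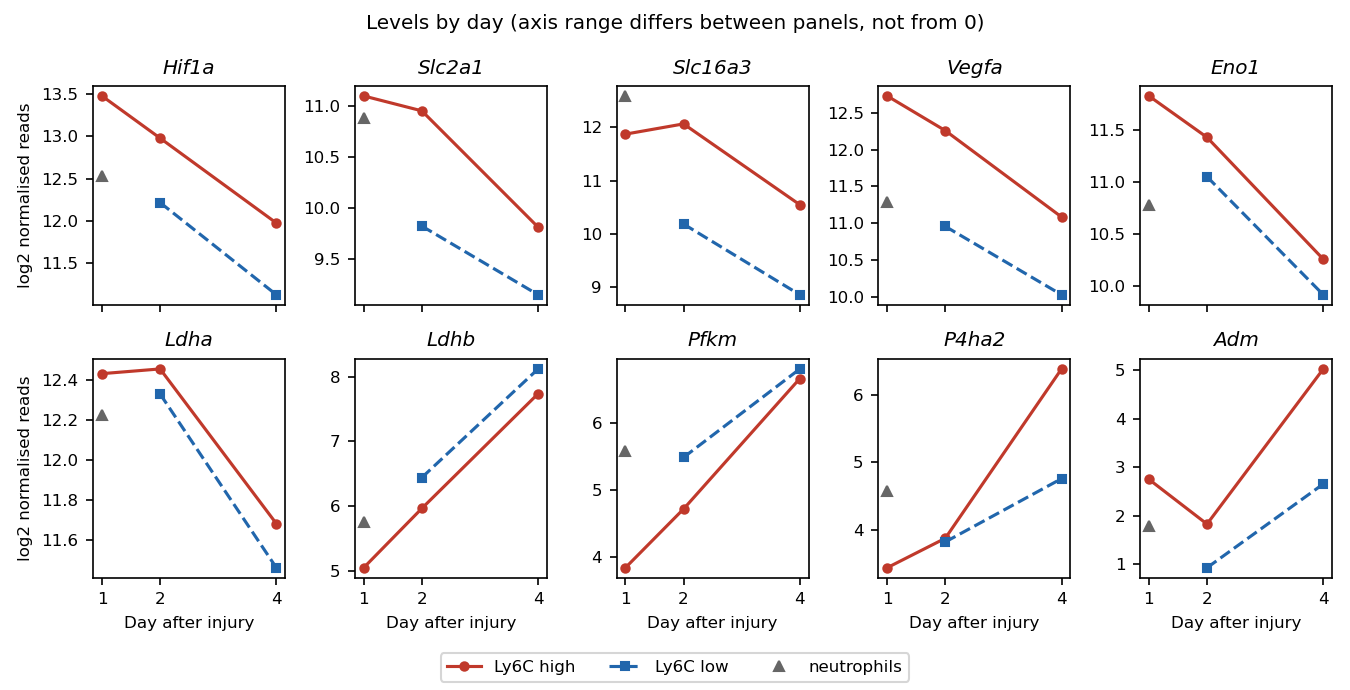
Log2 normalised reads (vertical axes, each panel with its own range) of 10 members by day after injury (horizontal axes), for Ly6C high cells (red circles), Ly6C low cells (blue squares) and neutrophils (grey triangles), 1 group mean per point. Hif1a, Slc2a1, Slc16a3, Vegfa and Eno1 are lower on day 4 and lower in Ly6C low cells, while Ldhb and Pfkm are higher on day 4 in both and Adm is highest in Ly6C high cells on day 4 at 5.03.

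The secreted and folding targets were split. Vegfa, the growth factor that drives vessel formation, had log2 levels of 11.29 in neutrophils, 12.73, 12.26 and 11.09 in the Ly6C high groups (days 1, 2 and 4), and 10.96 and 10.03 in the Ly6C low groups (days 2 and 4). It was thus highest in Ly6C high cells on day 1 and lower in Ly6C low cells on either day. On day 4 against day 1 it was 3.12-fold lower in Ly6C high cells, and in Ly6C low against Ly6C high cells 2.46-fold lower on day 2 and 2.08-fold lower on day 4. Ero1l, which oxidises proteins as they fold in the endoplasmic reticulum, had log2 levels of 10.56 on day 1 and 9.22 on day 4 in Ly6C high cells and of 8.79 in Ly6C low cells on day 4. P4ha1, a subunit of the enzyme that hydroxylates collagen, spanned 9.91 to 10.94 over the macrophage groups and was not 2-fold apart in any of their comparisons.

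P4ha2 and Adm stood out in 1 group. P4ha2, the other catalytic subunit of the collagen hydroxylase, had log2 levels of 4.58 in neutrophils, 3.44, 3.88 and 6.38 in the Ly6C high groups (days 1, 2 and 4), and 3.82 and 4.76 in the Ly6C low groups (days 2 and 4). Adm, which encodes the vasodilator adrenomedullin, had log2 levels of 1.78, then 2.75, 1.83 and 5.03, then 0.93 and 2.66 in the same order. Both were highest in Ly6C high cells on day 4, and both were compared only through that value, so they had to differ. P4ha2 was 7.69-fold and Adm 4.84-fold higher there than on day 1, and 3.08-fold and 5.18-fold lower in Ly6C low than in Ly6C high cells on day 4. With quantile normalization the log2 difference of Adm from day 1 was 1.21 in place of 2.28, and that of P4ha2 was 2.17 in place of 2.94.

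Markers of stromal and vessel cells peaked in the same group. The 9 fibroblast markers summed to 15.85 on the log2 scale in Ly6C high cells on day 4, above 13.86 in Ly6C low cells, and all 9 were at least 2-fold higher than on day 1. The 9 endothelial markers summed to log2 levels of 9.54 in neutrophils, 10.04, 9.91 and 12.50 in the Ly6C high groups (days 1, 2 and 4), and 9.10 and 9.72 in the Ly6C low groups (days 2 and 4). All 9 were at least 2-fold higher on day 4 than on day 1 in Ly6C high cells, and 8 of 9 were at least 2-fold lower in Ly6C low than in Ly6C high cells on day 4. No endothelial marker was at 0 in any group, and Vwf was highest in neutrophils, at 8.93. Markers below log2 5 in 1 of the groups compared, such as Thy1 at 4.18 and Tek at 4.32 on day 1, could only be counted in 1 direction. The sum of the 8 dendritic cell markers also peaked in Ly6C high cells on day 4, at a log2 level of 10.92 against 7.49 to 9.51 in the other 5 groups. Of the 8, 5 were at least 2-fold higher than on day 1 in Ly6C high cells and none was lower. Not every marker peaked there: Xcr1 was highest in Ly6C high cells on day 1 and Ccr7 in Ly6C low cells on day 4. What RNA of these cells adds to the levels of P4ha2 and Adm was not tested. Markers of lymphocytes stayed lower, with summed log2 levels of 3.58 to 6.11 for 7 T and NK cell markers and 3.42 to 6.15 for 5 B cell markers.

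The remaining targets act on mitochondria, growth and stress. Ddit4, which restrains the growth kinase mTORC1, had log2 levels of 6.77 in neutrophils, 8.64, 7.36 and 7.41 in the Ly6C high groups (days 1, 2 and 4), and 6.22 and 6.0 in the Ly6C low groups (days 2 and 4). It was highest on day 1 and lower in Ly6C low cells on both days, by 2.2-fold and 2.67-fold. Mxi1, which antagonises MYC, had log2 levels of 9.49, then 11.78, 11.70 and 10.55, then 10.43 and 10.42 in the same order. Its difference between populations was seen on day 2, at -1.27 log2 units, and was near 0 on day 4, where the levels were 10.42 and 10.55.

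Bnip3 and Bnip3l, receptors that direct mitochondria to autophagy, went in opposite directions. Bnip3 had log2 levels of 7.86, 7.64 and 7.16 in the Ly6C high groups (days 1, 2 and 4), and Bnip3l of 9.11, 9.36 and 9.69. Neither was 2-fold apart in a macrophage comparison. Ndrg1, a stress-induced gene, lay between 11.26 and 11.92 over the macrophage groups, and Higd1a, a small mitochondrial protein, between 6.16 and 7.13. Ankrd37 had a log2 level of 5.95 in neutrophils and of 3.04 to 4.32 in macrophages, below the limit for comparison. It shares 349 exon bases, 22.7% of its exon length, with Lrp2bp on the other strand, and the library kit named in the labels does not keep strand.

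Between Ly6C low and Ly6C high cells no member was 2-fold higher in Ly6C low cells on either day. On day 2, 6 of 33 members compared were at least 2-fold lower, where 4.03% of all genes were, namely Slc16a3, Vegfa, Mxi1, Ddit4, Slc2a1 and Egln3, the last of which was compared only through its Ly6C high level. On day 4, 5 of 34 were lower, where 8.93% of all genes were, namely Adm, Slc16a3, P4ha2, Ddit4 and Vegfa. The share of all genes at least 2-fold higher in Ly6C low cells was 3.71% on day 2 and 2.44% on day 4, and the share apart was 7.74% and 11.4%. The members' median log2 difference was -0.35 on day 2 and -0.12 on day 4, beside -0.03 for all genes on both days. The count of day 4 rests partly on Adm and P4ha2: it was 3 where a gene had to reach log2 5 in 2 groups. On day 4 the share of higher genes among all genes counted went from 21.4 to 36.8% with quantile normalization, with 0 members higher and 4 lower.

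The difference between the populations was itself compared between the days, as the log2 difference of Ly6C low and high cells on day 4 less that on day 2. Of 35 members, 2 were at least 1 log2 unit above 0 (0.967% of all genes) and 2 at least 1 below (6.09% of all genes), with 7.06% of all genes apart. Mxi1 stood at 1.15 and Egln3 at 1.03, so that their deficit in Ly6C low cells was smaller on day 4. P4ha2 stood at -1.57 and Adm at -1.47. Slc16a3, Vegfa, Slc2a1 and Hif1a were lower in Ly6C low cells on both days, and their values in this comparison stayed within 1 log2 unit of 0. With quantile normalization 2 members lay above and 1 below, and among all genes counted the share above went from 13.7 to 28.2%.

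Within Ly6C low cells, 3 of 32 members compared were at least 2-fold lower on day 4 than on day 2, where 2.16% of all genes were, and 2 were higher, where 9.23% of all genes were (11.4% apart). Slc16a3 was 2.51-fold lower, Eno1 2.19-fold and Hif1a 2.13-fold. Ldhb was 3.2-fold higher and Pfkm 2.5-fold. The members' median log2 difference was -0.34, against 0.03 for all genes. With quantile normalization the share of higher genes among all genes counted went from 81.1 to 68.8%, and 2 members were higher and 4 lower.

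**Figure D4:**
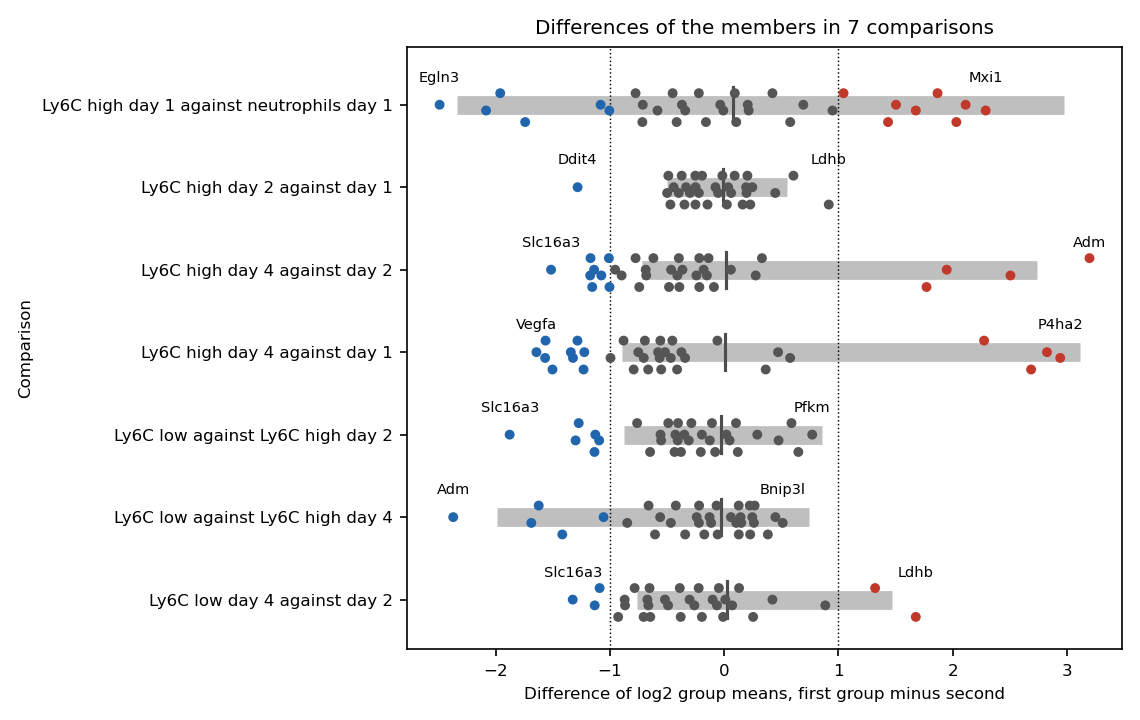
Log2 difference of group means, first group minus second (horizontal axis), of the members compared in 7 comparisons (vertical axis): red and blue points are at least 2-fold higher and lower, dotted lines mark 2-fold, grey bars run from the 5th to the 95th percentile of all genes compared and vertical ticks mark their median. In Ly6C high cells on day 4 against day 1 the members centre on -0.57 and all genes on 0.01, with Vegfa lowest and P4ha2 highest.

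Between neutrophils and Ly6C high macrophages on day 1, members lay apart in both directions, at shares not far above those of all genes. Of 34 members compared, 14 were at least 2-fold apart, where 32.7% of all genes were: 8 were higher in Ly6C high cells (16.6% of all genes) and 6 lower (16.1% of all genes). The members' median log2 difference was -0.02, against 0.08 for all genes. Mxi1, Pgam1, Pgk1, Ddit4, Ndrg1, Slc16a1, Vegfa and Eno1 were higher in macrophages, by 4.89-fold for Mxi1, 3.65-fold for Ddit4, 3.2-fold for Ndrg1 and 2.7-fold for Vegfa. Egln3, Aldoc, Ankrd37, Pfkm, Pfkfb4 and Hk1 were higher in neutrophils, by 5.62-fold for Egln3, 4.24-fold for Aldoc, the brain-type aldolase, and 3.89-fold for Ankrd37. Aldoc, Ankrd37 and Pfkm passed the limit only through their neutrophil level. The values of Pgam1 and Pgk1 rest on how shared reads were assigned: summed with their copies found by alignment, the log2 differences were 1.21 in place of 2.11 for Pgam1 and 1.49 in place of 2.03 for Pgk1.

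Paralogs that share a role differed in balance by day. The log2 level of Ldhb less that of Ldha went from -7.38 in Ly6C high cells on day 1 to -3.95 on day 4 and was -5.89 and -3.34 in the Ly6C low groups (days 2 and 4). For Pfkm less Pfkl the log2 differences were -6.32 and -2.70 in Ly6C high cells of days 1 and 4, and -4.43 and -2.62 in the Ly6C low groups (days 2 and 4). In both pairs the rarer gene came closer to the commoner one with time, and its own level was higher. The part of RNA from muscle or stromal cells in this was not tested. The Slc16 pair also came closer, with both levels lower on day 4: Slc16a3 less Slc16a1 went from 4.61 in neutrophils to 2.39, 2.63 and 1.58 in the Ly6C high groups (days 1, 2 and 4) and 1.31 and 0.50 in the Ly6C low groups (days 2 and 4). Bnip3l less Bnip3 went from 1.25 in Ly6C high cells on day 1 to 2.89 in Ly6C low cells on day 4. Over the 5 macrophage groups the balance moved by 4.04 log2 units for the lactate dehydrogenases, and by 0.53 for Hk2 less Hk1 and 0.49 for Pfkp less Pfkl.

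**Figure D5:**
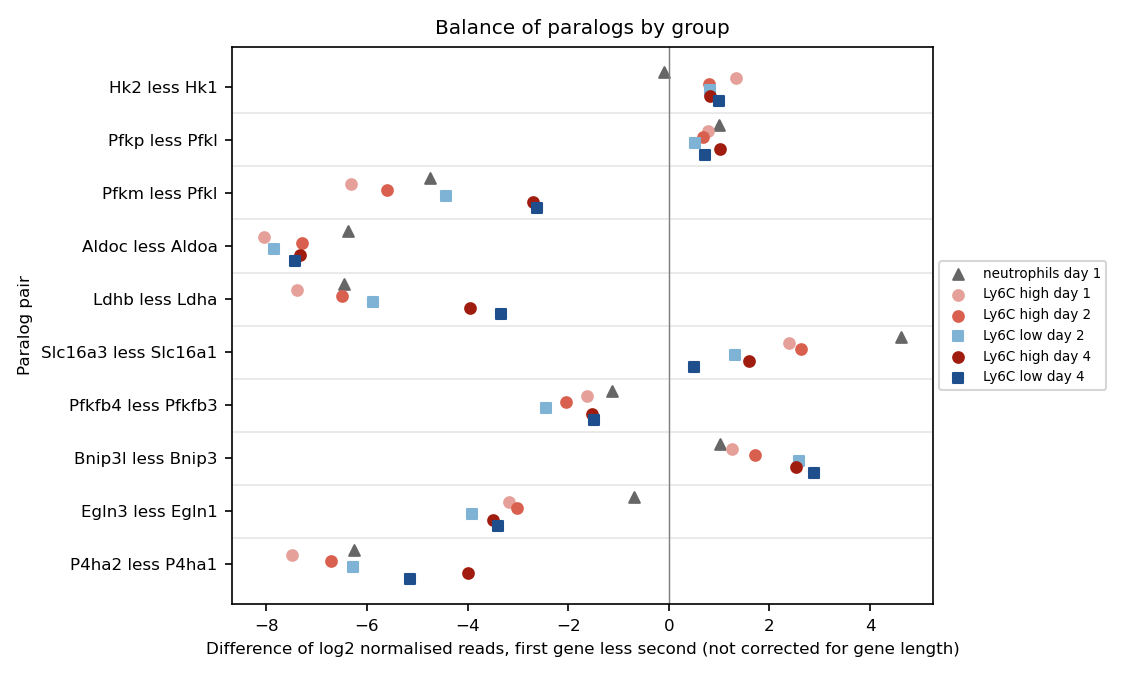
Difference of log2 normalised reads between paralogs, first gene less second and not corrected for gene length (horizontal axis), for 10 pairs (vertical axis) in the 6 groups. The points of Ldhb less Ldha run from -7.38 to -3.34 with day, while those of Pfkp less Pfkl stay between 0.52 and 1.01.

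Other genes of these pathways were described from lists outside the members. Of 22 further glycolysis enzymes and glucose transporters, 21 were in the table and 12 were compared in Ly6C high cells on day 4 against day 1, with 3 at least 2-fold higher (17.6% of all genes) and 1 lower (3.97% of all genes). The lower one was Pkm, which makes pyruvate, with log2 levels of 14.28 on day 1 and 12.82 on day 4. The higher ones were the transporters Slc2a8 and Slc2a3 and Bpgm, which makes 2,3-bisphosphoglycerate. Bpgm was at 4.78 on day 1 and passed the limit only through day 4, so it could only be counted as higher. Slc2a3, the high-affinity glucose importer, had log2 levels of 9.85 in neutrophils and 5.94 in Ly6C high cells on day 1, where Slc2a1 differed by only 0.21.

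Of 11 further genes of the HIF system, 9 were compared on day 4 against day 1 in Ly6C high cells, and 1 was at least 2-fold higher (17.6% of all genes) and none lower (3.97% of all genes). This was Epas1, which encodes HIF-2α, with log2 levels of 6.92 in neutrophils, 7.46, 8.16 and 9.68 in the Ly6C high groups (days 1, 2 and 4), and 9.27 and 9.43 in the Ly6C low groups (days 2 and 4). Its level was higher at each later day in Ly6C high cells, where that of Hif1a was lower. Endothelial cells also express Epas1, and the endothelial markers summed to 12.50 on the log2 scale in Ly6C high cells on day 4 and to 9.10 in Ly6C low cells on day 2. Their part in the level of Epas1 was not tested. Of 27 further hypoxia response genes, 24 were compared on day 4 against day 1 in Ly6C high cells, with 6 at least 2-fold higher (17.6% of all genes) and 3 lower (3.97% of all genes). Lox, a collagen cross-linking enzyme, went from 4.04 to 10.28 on the log2 scale and Angptl4, a lipoprotein lipase inhibitor, from 4.78 to 9.83, in the group where the fibroblast markers were highest. Both passed the limit only through day 4, so they could only be counted as higher. Arg1, arginase, went from 14.86 to 8.66 and Tgfbi, a secreted adhesion protein, from 15.24 to 13.69.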

How the data were processed

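Poly-A RNA of 17 samples was sequenced, and the authors deposited 1 table of log2 normalised reads for 38087 genes with 1 column per group. TopHat2 2.0.7, Cufflinks 2.0.2 and the build mm10 are named without a role, per the submitters' processing notes. The annotation, counting and normalization were not given in the sources used here. Steps between low values fitted a mean over samples of log2 reads with a floor at 0. Columns were matched to groups by the sample labels, and differences of log2 group means were computed (Python 3.11.15, pandas 2.3.3, numpy 2.4.6). The 36 members and the lists were chosen with earlier results of these data known. The genes named are mostly members, up to 4 genes at least 2-fold apart of a further list per comparison, or markers. No test was possible, as no column holds a single sample. Gene positions and lengths came from GENCODE M21, near-identical transcripts from blastn 2.17.0, and promoters from RefSeq (GRCm38.p6). The count rule was checked on simulated data with 4-fold changes in genes at log2 7 or more. Smaller changes and genes at lower levels were not covered by that check. Alternatives changed the filter, the pseudocount, the scaling, the fold and the treatment of copies.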

Additional observations from a re-analysis of the deposited data

How the results depend on the processing

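The counts and medians of the 8 comparisons were recomputed without a filter, with stricter filters, with a pseudocount of 5, with median-ratio rescaling, with quantile normalization, with copies summed and with 1.5-fold as the size that counts. Both treatments of copies, summing those found by alignment and leaving out members that have them, were chosen after seeing the data. With 1.5-fold, members apart numbered 3 in place of 1 for Ly6C high day 2 against day 1, 19 in place of 12 for day 4 against day 2, 20 in place of 13 for day 4 against day 1, 11 in place of 6 for Ly6C low against high on day 2, 8 in place of 5 on day 4, and 15 in place of 5 for Ly6C low day 4 against day 2. Requiring log2 5 in 2 of the 6 groups, or log2 7 in 1 group compared, left 3 for Ly6C low against high on day 4, and left 2 and 1 in place of 4 for the difference between the days. Leaving out members with copies left 3 in place of 5 for Ly6C low day 4 against day 2. The median log2 difference of day 4 against day 2 in Ly6C high cells was -0.52 with median-ratio rescaling and -0.54 with quantile normalization, in place of -0.41. For Ly6C low day 4 against day 2 it was -0.46 with median-ratio rescaling, in place of -0.34. Against neutrophils it was 0.099 with the filter at log2 7, in place of -0.02. The filters test fewer genes, and the cause of the other shifts was not tested. Quantile normalization moved the median of all genes to -0.11 and -0.12 for Ly6C high day 4 against days 2 and 1, and the members' medians were -0.54 and -0.59.

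Of 60 differences of single members, 57 stayed at least 2-fold the same way with the pseudocount, 59 with median-ratio rescaling, 56 with quantile normalization and 60 with either sum of copies. With a pseudocount of 5 the log2 differences of Adm on day 4 were 2.14, 1.68 and -1.74 against day 2, day 1 and in Ly6C low cells. Quantile normalization gave 2.17 for Adm and 1.86 for P4ha2 against day 2, and 2.14 for Pfkm against day 1. Summed with copies named after it, Pgk1 was 2.67 above neutrophils and Pgam1 1.22.

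No paired analysis was possible because each column is a group mean and holds no single sample; for the same reason leaving out replicates was not run. Levels under log2 5 rest on fewer than 31.2 to 77.6 reads per sample.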

Other observations

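Of the pathways that branch from glycolysis, few genes were 2-fold apart between macrophage groups. All 8 genes of the pentose phosphate pathway were compared in the 6 comparisons between macrophage groups and none was 2-fold apart. Of all genes, 2.51 to 21.6% were apart in these comparisons, and 8 genes are few to set beside such shares. Pgd, which releases carbon dioxide from 6-phosphogluconate, was at a log2 level of 12.12 in neutrophils and 11.22 to 11.54 in macrophages. Of 13 genes of pyruvate entry into mitochondria, 12 were compared in Ly6C high cells on day 4 against day 1, and 1 was at least 2-fold higher (17.6% of all genes) and none lower (3.97% of all genes). This was Pdk2, a kinase that inhibits pyruvate dehydrogenase, with log2 levels of 5.21 in neutrophils, 2.78, 3.88 and 6.49 in the Ly6C high groups (days 1, 2 and 4), and 5.19 and 7.04 in the Ly6C low groups (days 2 and 4). Pdk2 was also at least 2-fold higher in Ly6C high cells on day 4 against day 2, in Ly6C low against Ly6C high cells on day 2, and in Ly6C low cells on day 4 against day 2. In the last of these Pdpr, a regulator of pyruvate dehydrogenase phosphatase, was higher too, at log2 levels of 7.55 against 6.36. Against Ly6C high cells of days 1 and 2, Pdk2 passed the limit only through the other group, so it could only be counted as higher. Pdk1, a member of the module with the same role, was at 8.33 and 7.78 in Ly6C high cells of days 1 and 4.

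Of 12 genes of glycogen and gluconeogenesis, 9 were compared between Ly6C high cells and neutrophils on day 1, and 4 were at least 2-fold lower in Ly6C high cells (16.1% of all genes) and none higher (16.6% of all genes). Pygl, which breaks down glycogen, had log2 levels of 11.39 in neutrophils and 9.12 in Ly6C high cells, Gys1, glycogen synthase, 8.41 and 7.2, and Gbe1, the branching enzyme, 8.24 and 7.17. Pck2, the mitochondrial enzyme that makes phosphoenolpyruvate, had log2 levels of 6.77 in neutrophils, 5.01, 6.26 and 8.22 in the Ly6C high groups (days 1, 2 and 4), and 6.73 and 8.64 in the Ly6C low groups (days 2 and 4). It was at least 2-fold higher at each later day within both populations.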
